A study of Mus musculus with 20 samples.

Results

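Acetylation of histone H3 at lysine 14 (H3K14ac) was called at 19350 sites in the livers of young mice, and the sites described here are those that Kap1 occupied without Setdb1. They were chosen on the measured peak positions: a young H3K14ac peak on chromosomes 1 to 19 that shared at least 1 bp with a young Kap1 peak and no base with a young Setdb1 peak. Of 18885 autosomal H3K14ac peaks, 2066 met this rule, or 10.9% (95% Wilson interval 10.5% to 11.4%), and are called Kap1-only sites below. Setdb1 alone lay on 324 peaks, both factors on 188 and neither factor on 16307. Intervals given here cover counting error only.

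All animals were wild type C57BL/6 mice, male according to the methods of the study, aged 3 months (young) or 21 months (old), and chromatin came from whole liver, a mixture of cell types. The study mapped each protein by chromatin immunoprecipitation and sequencing (ChIP-Seq) to see where the acetyl mark and the repressor complex lie in young and old liver. Reads of 3 livers per age were merged for H3K14ac and Setdb1 and reads of 2 livers per age for Kap1, and 1 list of peak positions was made per protein and age. A difference between ages therefore has no spread between livers, the depth behind a peak is unknown, and age cannot be told apart from differences between the pools.

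Kap1, encoded by Trim28, is a corepressor that zinc finger proteins with a KRAB domain bring to DNA. It can recruit Setdb1, the enzyme that methylates histone H3 at lysine 9, and the pair is known for silencing mobile elements, imprinted alleles and the zinc finger gene clusters themselves. H3K14ac is in general a mark of open and active chromatin and is rich at promoters. The sites described here combine a called peak of the cofactor with one of the active mark and have no called peak of the methyltransferase, which does not show that Setdb1 is absent.

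Windows of 200 bases around the midpoint of the Kap1 overlap are given from the GRCm38 reference, plus strand. They are examples picked by rule and are not typical of the class. None is from a site between genes, where 52.6% of the Kap1-only sites lay. The first 4 come from sites that reach to within 1 kb of a start of a protein coding gene and had H3K14ac and Kap1 peaks at both ages, in order of the width of the site. The sites are wide, so a window need not hold the start itself: that of Mroh2a lies over 1 kb inside the gene. Capitals mark each CG pair, because the central 500 bp of start site peaks in this class held fewer of them than those of start site peaks with neither factor. The Mroh2a window (chr1:88228242-88228441) holds 6 CG pairs, the Ugt1a1 window (chr1:88213838-88214037) 2, the Hjurp window (chr1:88275427-88275626) 4 and the Sept11 window (chr5:93091973-93092172) 2. Of the Sept11 window, whose Kap1 overlap is at the edge of the site, 105 bases lie inside the H3K14ac peak. The first of the 2 CG pairs in that window lies outside the peak.

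Mroh2a: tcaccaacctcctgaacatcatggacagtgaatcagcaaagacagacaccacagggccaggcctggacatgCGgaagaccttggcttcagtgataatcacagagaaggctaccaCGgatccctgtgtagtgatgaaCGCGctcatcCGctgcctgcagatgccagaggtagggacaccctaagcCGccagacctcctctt

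Ugt1a1: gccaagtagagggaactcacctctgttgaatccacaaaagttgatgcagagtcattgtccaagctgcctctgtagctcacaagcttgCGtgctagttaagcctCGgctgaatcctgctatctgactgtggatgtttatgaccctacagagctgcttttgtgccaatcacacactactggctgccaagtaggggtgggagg

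Hjurp: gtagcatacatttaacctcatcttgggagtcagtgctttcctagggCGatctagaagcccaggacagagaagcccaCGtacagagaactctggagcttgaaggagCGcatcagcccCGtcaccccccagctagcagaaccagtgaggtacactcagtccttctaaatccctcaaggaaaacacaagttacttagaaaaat

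Sept11: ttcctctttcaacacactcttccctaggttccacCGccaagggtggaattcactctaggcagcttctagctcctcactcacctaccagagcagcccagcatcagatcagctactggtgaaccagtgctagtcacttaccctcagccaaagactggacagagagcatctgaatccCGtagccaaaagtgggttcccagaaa

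The next windows are from sites with the most copies of the TGEKP linker, the short peptide that joins neighbouring C2H2 zinc fingers. Capitals mark the bases that encode a linker, on either strand. The window at chr16:98011239-98011438, in an intron shared by the annotated transcripts B230307C23Rik and A630089N07Rik, encodes 1 linker, and the window in an exon of Gm14412 (chr2:177314566-177314765) encodes 2 on the minus strand.

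A630089N07Rik: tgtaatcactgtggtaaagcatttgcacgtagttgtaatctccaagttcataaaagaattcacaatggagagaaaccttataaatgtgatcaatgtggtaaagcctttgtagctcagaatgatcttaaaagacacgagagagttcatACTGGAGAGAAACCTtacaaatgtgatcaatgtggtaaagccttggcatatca

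Gm14412: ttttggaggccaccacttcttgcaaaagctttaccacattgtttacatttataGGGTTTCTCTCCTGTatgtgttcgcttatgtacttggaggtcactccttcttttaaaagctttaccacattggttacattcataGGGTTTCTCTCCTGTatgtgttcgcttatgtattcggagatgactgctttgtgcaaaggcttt

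Kap1-only sites lay in introns of 2 genes on a list of imprinted genes, Copg2 (chr6:30804802-30805001) and Snrpn (chr7:60138836-60139035). Neither window holds a CG pair, so neither shows a capital.

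Copg2: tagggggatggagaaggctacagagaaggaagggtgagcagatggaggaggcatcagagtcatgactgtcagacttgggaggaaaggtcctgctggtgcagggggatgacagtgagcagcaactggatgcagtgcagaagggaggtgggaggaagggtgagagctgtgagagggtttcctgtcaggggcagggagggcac

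Snrpn: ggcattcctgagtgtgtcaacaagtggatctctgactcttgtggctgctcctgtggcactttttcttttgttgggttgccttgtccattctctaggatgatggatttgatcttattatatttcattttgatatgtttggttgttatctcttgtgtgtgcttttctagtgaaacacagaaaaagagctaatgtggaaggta

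Pooled over all places, Kap1-only sites had an old H3K14ac peak more often than H3K14ac peaks with neither factor, but not outside the bins rich in such sites. An old H3K14ac peak overlapped 709 of the 2066 sites, or 34.3% (32.3% to 36.4%), where the share over all young autosomal H3K14ac peaks was 20.8%. Among peaks with neither factor it was 18.9% (18.3% to 19.5%), a difference of 15.4 percentage points (13.3 to 17.6). With every peak set to 200 bp the difference was 7.75 points, and with peaks of exactly 500 bp 9.85. It turned to -0.114 points (18% against 18.1%) when the 1 Mb bins with 10 or more Kap1-only sites, described below, were left out. An old Kap1 peak overlapped 957 sites, or 46.3% (44.2% to 48.5%), against 8.23% of all H3K14ac peaks and 2.7% of those with neither factor. Because the rule already required Kap1 in young liver, the Kap1 share describes how often the call recurred and is no independent finding. An old Setdb1 peak was found at 34 sites, 1.65% (1.18% to 2.29%), against 1.04% of all H3K14ac peaks, so at few of these sites was Setdb1 called at the older age.

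The companion classes differed from the Kap1-only sites in both directions. Peaks with Setdb1 alone were overlapped by an old H3K14ac peak in 9.88% of 324 cases, 24.4 points below the Kap1-only share (20.2 to 27.9). Peaks with both factors were overlapped in 59% of 188 cases, and the Kap1-only share was lower by 24.7 points (interval of the difference -31.8 to -17.3). The old Setdb1 share was 24.5% with both factors and 2.78% with Setdb1 alone, classes chosen for a young Setdb1 peak. The Kap1-only share of 1.65% differed from the latter by -1.13 points, with an interval (-3.59 to 0.328) that spans 0.

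**Figure D1:**
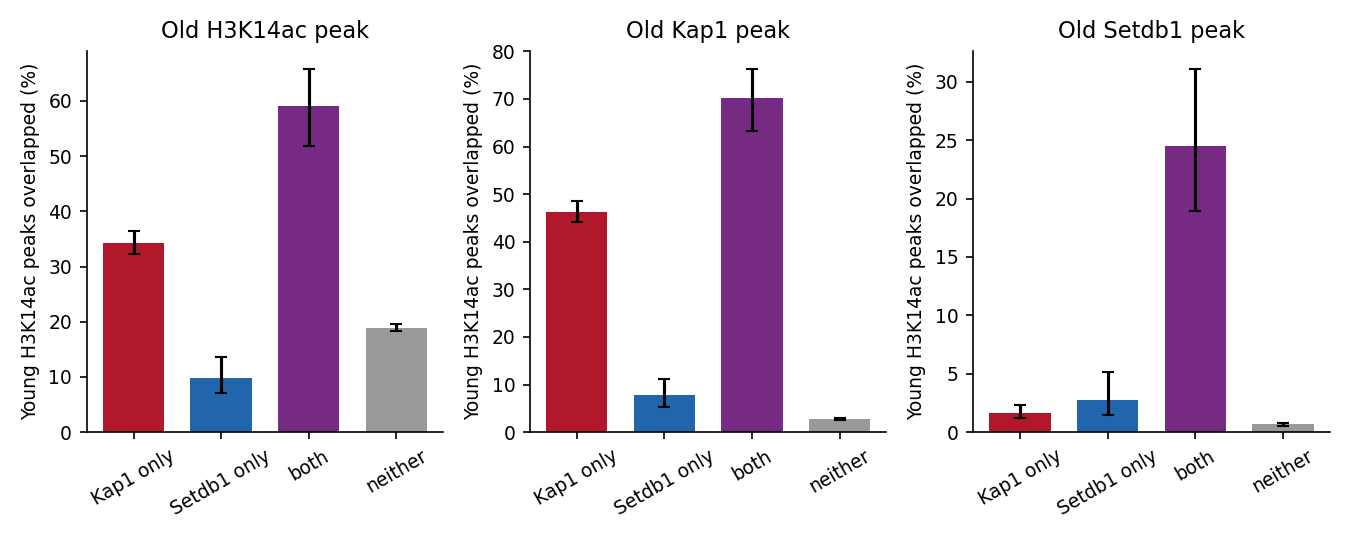
Share of young H3K14ac peaks (vertical axes, percent) overlapped by an old H3K14ac, Kap1 or Setdb1 peak, by the factor on the young peak (horizontal axes). Bars are shares and lines 95% Wilson intervals. Kap1-only peaks stand at 34.3%, 46.3% and 1.65%, above the peaks with neither factor and below those with both.

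Taking the ages site by site, 511 sites (24.7%, 22.9% to 26.6%) had H3K14ac and Kap1 in both, where 3.59% of all young H3K14ac peaks had both old peaks. A further 198 sites (9.58%) kept H3K14ac without an old Kap1 peak, 446 (21.6%) kept Kap1 without an old H3K14ac peak, and 911 (44.1%) had no old peak of either kind. Sites with an old Kap1 peak had an old H3K14ac peak in 53.4% of cases (50.2% to 56.5%), and sites without one in 17.9% (15.7% to 20.2%). The sites that kept both were also wider and more often duplicated in the genome: 33.3% exceeded 500 bp and 39.5% had a further copy, against 3.4% and 11.2% of the sites that kept neither. The part of width and of copies in these shares was not tested.

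Fewer of the sites lay at start sites. Within 1 kb of an annotated start site lay 272 Kap1-only sites, 13.2% (11.8% to 14.7%), against 27.6% of all young H3K14ac peaks and 30% of those with neither factor, a difference of -16.8 points (-18.4 to -15.1). Within 5 kb the shares were 35.9% and 44.3%, and within 1 kb of a start of a protein coding transcript 6.24% and 26.2%. Between genes lay 1087 sites (52.6%, 50.5% to 54.8%), against 36.2% of peaks with neither factor. Introns held 27.1% and exons 7.12% of the sites, close to the 27.5% and 6.3% of peaks with neither factor. The start site share was 9.26% (6.56% to 12.9%) with Setdb1 alone and 10.6% (6.99% to 15.9%) with both factors, intervals that overlap that of the Kap1-only sites.

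Away from start sites the share of old H3K14ac peaks was higher at Kap1-only sites, and at start sites the pooled shares were close. At start sites an old H3K14ac peak overlapped 126 of 272 Kap1-only sites (46.3%, 40.5% to 52.3%) and 47.5% of 4887 peaks with neither factor, a difference of -1.15 points whose interval (-7.15 to 4.95) spans 0. In introns the shares were 41.4% of 560 sites and 7.56% of 4485 peaks, and in exons 40.1% of 147 sites and 12.7% of 1027 peaks. Between genes they were 26.9% of 1087 sites and 5.01% of 5908 peaks. Over the 3 places away from start sites together, 32.5% of 1794 sites (30.4% to 34.7%) and 6.7% of 11420 peaks (6.25% to 7.17%) had an old H3K14ac peak, a difference of 25.8 points (23.6 to 28). The direction of this difference was the same on 19 of 19 chromosomes, with shares for the sites from 12% on chromosome 6 to 64.7% on chromosome 11, where 17 sites lay away from start sites. With every peak set to 200 bp, the difference in the H3K14ac share away from start sites was 14.9 points. It was 11.6 points without the 1 Mb bins with 10 or more sites, described below. The share with an old Kap1 peak varied little by place, from 44.1% between genes to 49.6% in introns.

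**Figure D2:**
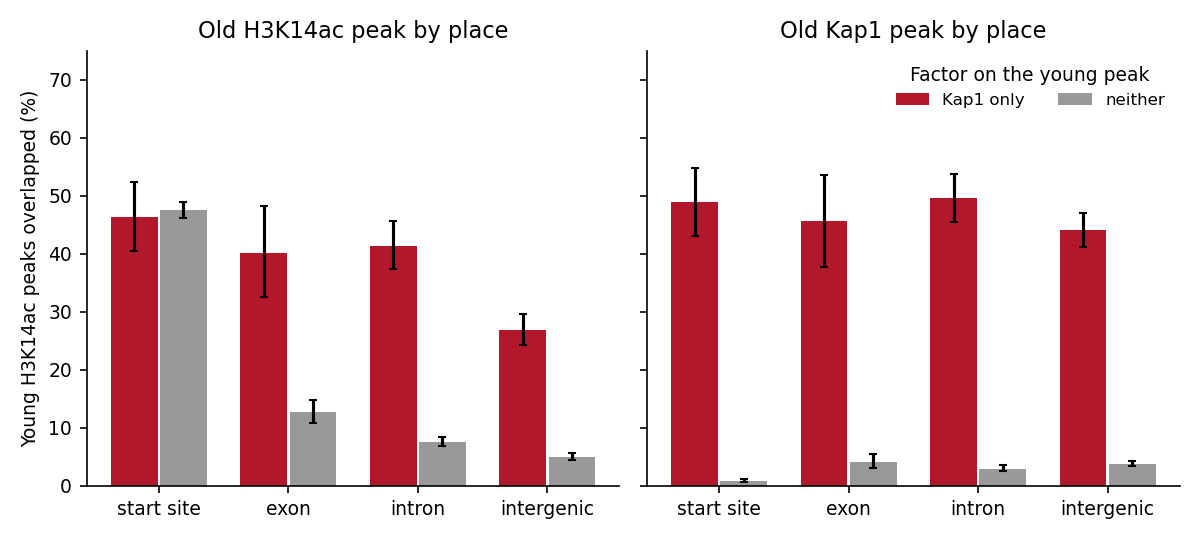
Share of young H3K14ac peaks (vertical axis, percent) with an old H3K14ac peak (left) or an old Kap1 peak (right), by place, for Kap1-only peaks and peaks with neither factor; lines are 95% Wilson intervals. At start sites the H3K14ac shares are 46.3% and 47.5%, whereas in introns they are 41.4% and 7.56%.

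The sites were not spread evenly. Of 2473 bins of 1 Mb on the autosomes, 338 held any Kap1-only site, and the 10 richest held 557 sites, 27% of all. The 10 richest bins for peaks with neither factor held 4.76% of those peaks. The classes hold 2066 and 16307 peaks, and the richest bins of a smaller class hold a larger share even without clustering. Within 10 kb of another Kap1-only site lay 60.9% of the sites (58.8% to 63%). Of the peaks with neither factor, 38.6% (37.9% to 39.4%) lay within 10 kb of another such peak. Joining Kap1-only sites within 1 kb of each other left 1620 regions. Chromosome 4 held 412 sites, 19.9% of all and 24% of the H3K14ac peaks of that chromosome. Chromosome 7 followed with 242 and chromosome 8 with 180, while chromosome 11 held 21, or 2.57% of its H3K14ac peaks. Neighbouring sites are not independent, and the intervals above are too narrow to that extent.

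**Figure D3:**
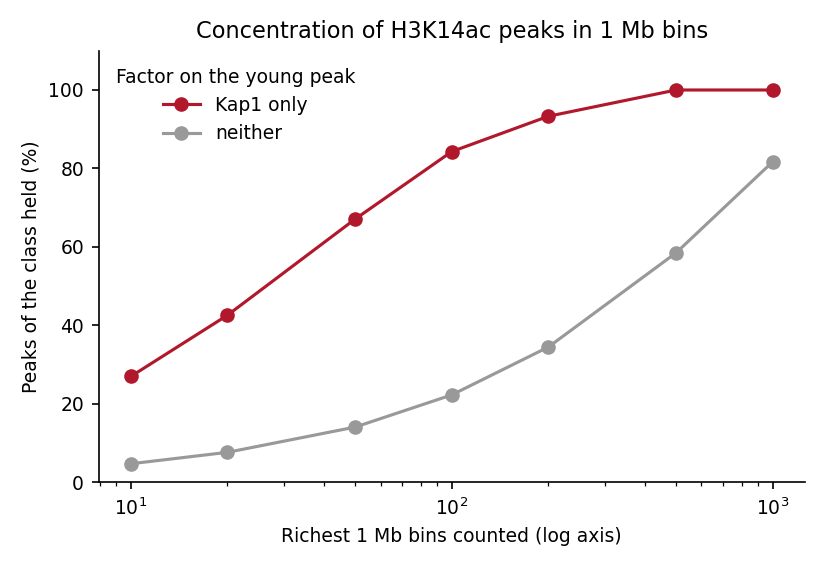
Share of the peaks of a class (vertical axis, percent) held by its richest 1 Mb bins (horizontal axis, number of bins, log axis), for Kap1-only peaks and peaks with neither factor. The 50 richest bins hold 67.1% of the Kap1-only peaks and 14.1% of the peaks with neither factor. The classes hold 2066 and 16307 peaks, and these shares depend in part on class size.

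The 59 bins with 10 or more sites held 1483 of the 2066 sites (71.8%) and differed from the others in overlap with the old lists. In them 40.7% of the sites had an old H3K14ac peak (38.3% to 43.2%) and 55.1% an old Kap1 peak, whereas elsewhere the shares were 18% (15.1% to 21.3%) and 24% (20.7% to 27.6%). Peaks with neither factor had an old H3K14ac peak in 24.8% of cases in the same bins and in 18.1% elsewhere, so that outside these bins the pooled difference between the classes was -0.114 points. At start sites the direction differed between the 2 sides. Inside the rich bins the shares were 52.6% of 196 sites (45.6% to 59.4%) and 45.4% of 355 peaks (40.3% to 50.6%), with intervals that overlap. Outside them they were 30.3% of 76 sites (21.1% to 41.3%) and 47.6% of 4532 peaks (46.2% to 49.1%). Away from start sites the sites had the higher share on both sides. It was 38.9% against 20.2% inside the rich bins, and 16.2% of 507 sites (13.2% to 19.6%) against 4.53% of 9841 peaks (4.14% to 4.96%) outside them. With the further limits of a width of exactly 500 bp and no further copy in the genome, 14.4% of 439 sites (11.4% to 17.9%) and 4.24% of 9471 peaks (3.86% to 4.67%) had an old H3K14ac peak.

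The bin with the most sites adjoined another of the 5 richest on chromosome 4, in a cluster of zinc finger genes. Between 147 and 148 Mb there were 90 sites among 118 H3K14ac peaks, and 63 of them had an old H3K14ac peak and 76 an old Kap1 peak. Between 146 and 147 Mb there were 64 sites among 77 H3K14ac peaks, of which 51 and 60 had those old peaks. Of these 154 sites, 45 (29.2%) lay over a zinc finger gene, and 106 had a further copy. Among peaks with neither factor, 7 of 17 between 147 and 148 Mb and 4 of 9 between 146 and 147 Mb had an old H3K14ac peak. Many sites, some of those over zinc finger genes included, lay over 3 long noncoding transcripts that run through the cluster: Gm26573 (chr4:146153456-147024959) with 59 sites, C230088H06Rik (chr4:147018235-147492201) with 53 and Gm26624 (chr4:147136278-147457019, which overlaps the former on the opposite strand) with 39. In introns of these transcripts lay 49, 46 and 34 of the sites, and a site may count for more than 1 transcript.

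Between these bins in number of sites stood a bin on chromosome 8 between 20 and 21 Mb, with 71 sites, 55 of them between genes. The annotated genes there include Defb33, which encodes a beta-defensin, an antimicrobial peptide. Old Kap1 peaks overlapped 54 of these sites and old H3K14ac peaks 23, and old H3K14ac peaks overlapped 4 of the 21 peaks with neither factor in this bin. On chromosome 4 between 122 and 123 Mb there were 54 sites, 46 of them with a further copy, and 30 had an old H3K14ac peak and 46 an old Kap1 peak. Peaks with neither factor in this bin numbered 37, of which 10 had an old H3K14ac peak. On chromosome 1 between 85 and 86 Mb there were 50 sites among 148 H3K14ac peaks, in a stretch with Sp100, Sp110 and Sp140, which encode nuclear body proteins. An old H3K14ac peak overlapped 23 of these sites and 19 of the 89 peaks with neither factor. The bin between 156 and 157 Mb of chromosome 4, with Agrn, Ttll10 and Samd11, also held 50 sites, of which 11 had an old H3K14ac peak and 21 an old Kap1 peak. Of the 61 peaks with neither factor there, 22 had an old H3K14ac peak, a higher share than that of the sites.

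A short block on chromosome 1 differed from those bins in that nearly every site recurred. Between chr1:88211516 and chr1:88310754 lay 44 sites within 99.2 kb, and their summed width was 67.8 kb. All 44 had an old H3K14ac peak and 43 an old Kap1 peak. No further copy was found for any, in a search limited to the central 500 bp and the reference. Kap1 covered all 5836 bp of the widest site. No list of regions with abnormal signal was used to check the block, so its recurrence may not reflect the genes in it. The 1 Mb bin around the block, between 88 and 89 Mb, held 9 peaks with neither factor, of which 6 had an old H3K14ac peak. The block runs over the 3' part of the Ugt1a locus, Mroh2a, Hjurp and part of Trpm8. Ugt1a1, which conjugates bilirubin with glucuronic acid in hepatocytes, had 1 site of 4845 bp at its start. Mroh2a, a HEAT repeat protein gene, had 13 sites, 10 of them in exons away from the start, and all 13 had both old peaks. Hjurp, the chaperone that loads the centromeric histone CENP-A, had a site of 4031 bp at its start. Trpm8, the cold-sensing cation channel, had 19 sites, all with an old H3K14ac peak and 18 with an old Kap1 peak.

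Other genes with many sites varied in how often an old peak was called, where the shares over all Kap1-only sites were 34.3% for H3K14ac and 46.3% for Kap1. Grk5, a kinase of G protein-coupled receptors (chr19:60889749-61095968), had 15 sites, 14 of them in introns, beside 15 H3K14ac peaks with neither factor. Of its 15 sites 5 had an old H3K14ac peak and 9 an old Kap1 peak. Cacna2d1, an auxiliary subunit of voltage-gated calcium channels, had 10 sites, of which 4 had an old H3K14ac peak. Sfi1, a centrosomal centrin-binding protein, had 10 sites, and all 10 had an old H3K14ac peak. Nlrp9b, an inflammasome receptor, had 9 sites and Smok2a, a sperm motility kinase, 7. Of these 9 and 7 sites, 5 and 6 had an old H3K14ac peak. At the low end were Snhg14, the long host transcript of imprinted small nucleolar RNAs, and Mfsd14b, with 7 sites each and 0 old H3K14ac peaks.

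The remaining genes among the 20 with most sites were Platr16 and 1700095A21Rik with 11 each, AC174800.1 with 9, Gm8739 and Tmem267 with 8, and Cab39 and AI838599 with 7. With 7 sites, 7 genes were tied for the last 5 places, which went by position, so that Smok2b and 2700054A10Rik were left out of the 20. Of the 11 sites in 1700095A21Rik, which lies antisense over the end of Zfp981, all 11 had both old peaks. The peak lists carry no strand, so a site in overlapping genes belongs to each of them.

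Few of the sites lay over zinc finger genes. Counted as protein coding genes with at least 3 C2H2 fingers in the longest coding sequence, 627 such genes lie on the autosomes, and 29 of them had a Kap1-only site over the gene body, 4.63% (3.24% to 6.56%), where 344 of all 20807 protein coding genes had one, 1.65%. They held 77 sites, 3.73% (2.99% to 4.63%), against 2.51% of all young H3K14ac peaks and 2.33% of those with neither factor. Chromosome 4 held 49 of the 77, and without that chromosome the share was 1.69%, below the 2.32% of peaks with neither factor there. The sites over these genes lay in introns in 48 cases, in exons in 16 and at start sites in 13. An old H3K14ac peak overlapped 47 of them, 61% (49.9% to 71.2%), against 31.3% of 380 peaks with neither factor over such genes.

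Zfp981 (chr4:146502027-146539395) stood first with 19 sites, of which 17 had an old H3K14ac peak and 18 an old Kap1 peak. Zfp992, its neighbour, had 6 sites, all with an old H3K14ac peak and the widest of 3562 bp. Zfp985 also had 6, of which 2 had an old H3K14ac peak, and Zfp950 on chromosome 19 had 6, of which 1 had it. Zfp982 had 5, and Gm14401, Gm14443, Zfp600 and Zfp984 had 3 each. All 3 sites of Gm14401 had both old peaks, whereas Zfp600 and Zfp984 each had 1 site with an old H3K14ac peak.

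The finger-coding sequence itself was rarely at the sites. At least 1 TGEKP linker was encoded at 13 sites, 0.629% (0.368% to 1.07%), against 0.185% of all young H3K14ac peaks. Of these 13, 6 lay over one of the zinc finger genes. The share was 0.232% (3 sites) with every peak set to 200 bp and 0.356% (5 sites) with 50% of the Kap1 peak covered. Without the rich bins it was 0.343% (2 sites). The site on chromosome 16 shown above and that in Gm14412 encoded 6 linkers each. On chromosome 4, a site over Platr16 and Gm13230 (chr4:145449549-145450048) encoded 4. A site in an exon of Zfp981 and one between genes (chr4:147514571-147515070) encoded 3 each. Sites with 2 lay in exons of Zfp954, Mzf1 and Gm13230. In Gm14412 the site had both old peaks, on chromosome 16 it had an old Kap1 peak only, and in Zfp954 it had neither.

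At the start sites of protein coding genes, 128 sites met 97 genes. Both old peaks were found at 53 of these sites. The share with both was 33.1% over all Kap1-only sites near any start site and 24.7% over all Kap1-only sites. Over all young H3K14ac peaks it was 3.59%. Of the 97 genes, 36 had a site with both old peaks. Ranked by width, the list began with Sfi1, whose site of 15837 bp, the widest of all, ran from the gene over its start into Drg1. Its central 500 bp were 38.6% soft-masked, and 5 of the 10 sites in Sfi1 had a further copy in the genome. No list of regions with abnormal signal was used to check such sites. The next was Mroh2a with 5836 bp, then Ugt1a1 and Hjurp, described above. Gm21738 followed with 3978 bp, of which the central 500 bp were 81% soft-masked, that is marked as repeat in the reference. Sept11, a septin of the cytoskeleton, had 1910 bp of H3K14ac, of which Kap1 covered 10 bp, and its central 500 bp were 60.8% G and C.

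The other start sites in this ranking were narrower. Nlrp9b had 1472 bp, 4931408C20Rik 1470 bp, Gm14401 1457 bp and Samd11 1078 bp. Trpm8 had 1032 bp, Csf2ra, the receptor chain for the cytokine GM-CSF, 957 bp, and Coil, the scaffold of Cajal bodies, 905 bp. Smok2b, Mup5 (a major urinary protein secreted by the liver), Gm11168 and Zfp981 had between 514 and 774 bp, and Sp140 and the shared site of Nit1 and Pfdn2 had 500 bp. Gm11168 lay in sequence that was 99.2% soft-masked.

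Several groups of genes held no such site, among them the Kap1 complex itself and lists of liver lipid metabolism. Over the gene or within 1 kb of its start, 353 of 20807 protein coding genes had a Kap1-only site, 1.7%. None was found for the 18 autosomal genes of the Kap1 complex and heterochromatin (Trim28, Setdb1, the Cbx genes and others), although 10 of them had an H3K14ac peak. None was found for 18 apolipoprotein and lipid export genes, 18 genes of triglyceride and cholesterol synthesis, 20 nuclear receptors, 67 histone genes or 79 ribosomal protein genes, of which 10, 13, 15, 6 and 33 had an H3K14ac peak. Lists of this size would hold few genes at the share over all genes, so these zeros set no limit of their own.

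Members of large gene families had some, and their shares are read against the 1.7% of all protein coding genes. A peak of H3K14ac of any class lay at 25 of the P450, 58 of the vomeronasal, 77 of the olfactory and 18 of the imprinted genes named next, so the families also differed in how often a site could occur. Of 81 cytochrome P450 genes 5 had a site (6.17%): Cyp2b23, Cyp2b19, Cyp2c55, Cyp2c38 and Cyp2c69, all in introns or exons over 4 kb from a start, and 1 of the 5, in Cyp2c38, had an old H3K14ac peak. Of 329 vomeronasal receptor genes 18 had a site (5.47%), among them Vmn2r1, Vmn2r3, Vmn2r7 and Vmn2r-ps159, the last with 5. Of 1128 olfactory receptor genes 9 had one (0.798%), below the share over all genes, among them Olfr1188, Olfr1290 and Olfr827, the last with 3. These receptor families are chemosensory. Of 43 autosomal imprinted genes 2 had a site (4.65%): that in Copg2 had both old peaks, and that in Snrpn had neither. Snhg14, named above with 7 sites, is not on that list.

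The sequence of the sites held fewer CG pairs and more repeats than that of peaks with neither factor. In the central 500 bp the median G and C content was 44.8% (quartiles 40.8% and 48.6%), against 47.4% for peaks with neither factor, and the ratio of observed to expected CG pairs was 0.123 against 0.189. The contrast was at start sites, where the median ratio was 0.177 at Kap1-only sites (quartiles 0.0832 and 0.298) and 0.684 at peaks with neither factor (0.388 and 0.842), so that the quartile ranges did not overlap. Between genes the medians were 0.109 and 0.12. The median soft-masked share was 25.3% against 12%. In the other occupied classes the median CG ratio was 0.125 with Setdb1 alone and 0.142 with both factors (0.218 and 0.291 at start sites), and the soft-masked share 17.1% and 31.9%. The start sites compared here differed in kind. Near any start lay 13.2% of Kap1-only sites, and near a start of a protein coding transcript 6.24%. For peaks with neither factor these shares were 30% and 26.2%. The part of this in the CG ratio was not tested.

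**Figure D4:**
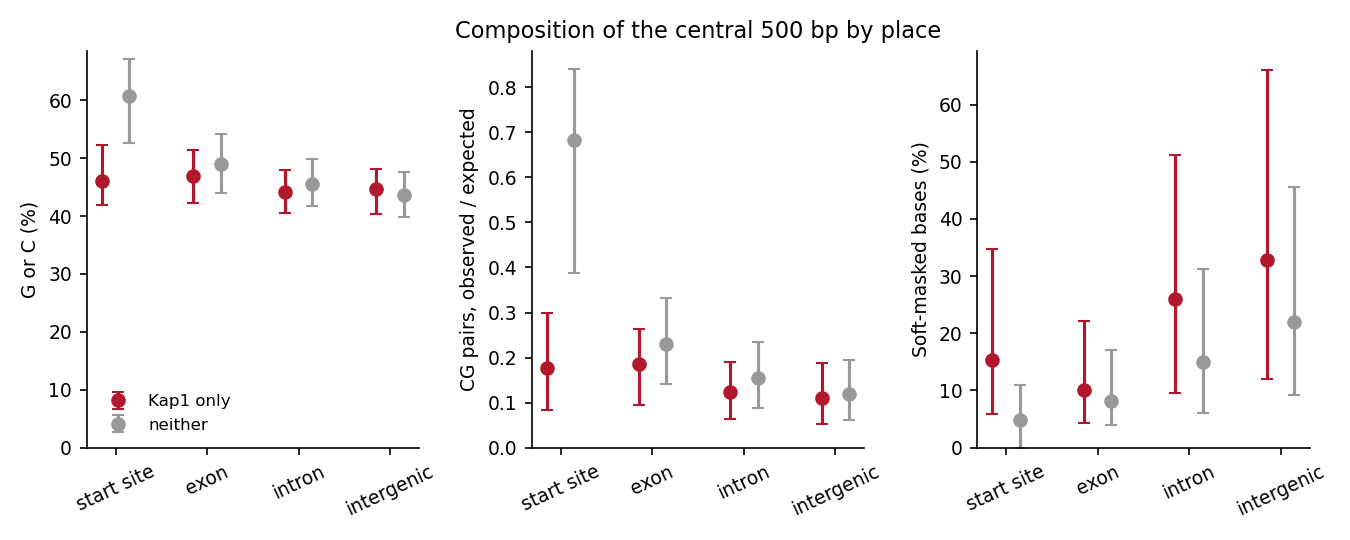
Composition of the central 500 bp of Kap1-only peaks and of peaks with neither factor by place (horizontal axes): G or C (percent), observed over expected CG pairs (ratio) and soft-masked bases (percent). Points are medians and lines run from the lower to the upper quartile. At start sites the CG ratio is 0.177 for Kap1-only peaks and 0.684 for peaks with neither factor. Starts of protein coding transcripts make up a smaller part of the Kap1-only start sites.

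A further copy of the central 500 bp, with at least 95% identity over at least 90% of the length, existed elsewhere in the genome for 441 sites, 21.3% (19.6% to 23.2%). The share was 6.83% over all young H3K14ac peaks and 4.92% at peaks with neither factor. With both factors it was 15.4%, and the difference of 5.92 points has an interval (-0.176 to 10.7) that spans 0. Exactly 1 further copy was found for 238 of the sites and 5 or more for 54. Since the authors kept uniquely aligned reads, duplicated sites were read only where their copies differ. Sites with a further copy had an old H3K14ac peak in 52.2% of cases and sites without one in 29.5% (27.3% to 31.7%). Among peaks with neither factor and no further copy the share was 18.6%. In the rich bins 25.6% of the sites had a further copy, and elsewhere 10.6%. The part of copies in these shares was not tested.

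Short sequence words were searched on both strands of the central 500 bp. The word TGCCGC, bound in its methylated form by the Kap1-recruiting protein Zfp57, occurred at 77 sites, 3.73%, against 10.5% of all young H3K14ac peaks. The word ATCAAT, the core bound by Onecut factors such as Hnf6, occurred at 463 sites, 22.4%, against 16.9%. The shares varied with place. Between genes, TGCCGC was at 3.13% of sites and 2.3% of peaks with neither factor, and ATCAAT at 22.6% and 23.2%. At start sites TGCCGC was at 8.46% of sites and 29.5% of peaks with neither factor, and ATCAAT at 21.7% and 6.67%. The start sites of these classes differed in kind, as given above. A word is a description of the sequence and says nothing about binding.

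A wider peak meets a rule of 1 shared base more readily, so the widths of the sites and of their Kap1 peaks are in part what the rule used and are given as a description. Of the sites 1997 met 1 Kap1 peak and 69 met 2, and the Kap1 peaks involved numbered 1888, 4.01% of all autosomal young Kap1 peaks. The overlap had a median of 211 bp (quartiles 150 and 429 bp), and the midpoints of the paired peaks were 143 bp apart in the median. Of the Kap1 peaks at these sites 58.9% were wider than 150 bp, the usual width in that list, against 9.34% of the 45045 Kap1 peaks that met no H3K14ac peak. Of the sites 268 exceeded 500 bp, or 13%, against 2.44% of all young H3K14ac peaks, and 93 reached 1000 bp, against 19 of the 16307 peaks with neither factor. Of the peaks with both factors 22.3% exceeded 500 bp. The 5 widest were those of Sfi1 (15837 bp), the introns of C230088H06Rik and Gm26624 (6611 bp), Mroh2a (5836 and 5072 bp) and Ugt1a1 (4845 bp), and all 5 had both old peaks and no old Setdb1 peak.

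A young Kap1 peak at a Kap1-only site had an old Kap1 peak in 40% of cases (37.8% to 42.2%), against 6.09% (5.87% to 6.31%) of those at no H3K14ac peak. The shares also moved with width. Among Kap1 peaks of 150 bp they were 13.5% (11.3% to 16.1%) and 3.63% (3.46% to 3.82%), and among wider ones 58.5% and 29.9%. The wider ones still differed in width, with medians of 486 bp at the sites and 276 bp at no H3K14ac peak.

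**Figure D5:**
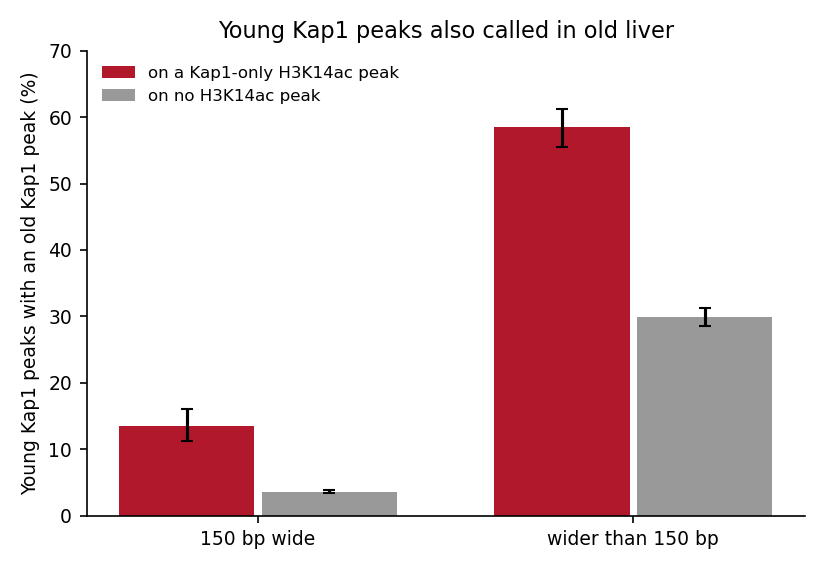
Share of young Kap1 peaks with an old Kap1 peak (vertical axis, percent), by width, for those on a Kap1-only H3K14ac peak and those on no H3K14ac peak; lines are 95% Wilson intervals. The shares are 13.5% and 3.63% at 150 bp and 58.5% and 29.9% above it.

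The threshold of the rule is 1 bp, and 28 sites met Kap1 over fewer than 10 bp. Just inside it, with an overlap of 1 bp, lay a site in A630001G21Rik (chr1:85732627-85733126) with an old H3K14ac peak, a site in Crb1 (chr1:139200774-139201273) with no old peak, and a site between genes (chr12:20824905-20825404) with an old Kap1 peak. Just outside it lay H3K14ac peaks in Grk5 (chr19:61051857-61052356) and Gm26804 (chr8:20313603-20314102), which abutted a Kap1 peak with a gap of 0 bp, and in Tespa1 (chr10:130351944-130352443) with a gap of 1 bp. Only the last of these had an old Kap1 peak. On the side of Setdb1, 98 sites (4.74%) had a young Setdb1 peak within 500 bp, the nearest at 2 bp, and the median gap was 11460 bp, against 17476 bp for peaks with neither factor.

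The tissue label was checked with marker genes, beside the 19% of all 20807 protein coding genes that had a young H3K14ac peak within 1 kb of a start. Such a peak was found for 3 of 10 hepatocyte markers (Apoa1, Apob and Tat, but not Alb or Ttr), 2 of 4 stellate cell markers (Dcn and Reln), 1 of 4 neuronal markers (Syt1), and 0 of 5 Kupffer cell, 4 endothelial, 4 cholangiocyte and 4 muscle markers. Lists of this size cannot be told from the share over all genes, and 7 of the 10 hepatocyte markers had no peak at the start, so they leave the label unchecked. Whether Kap1 and H3K14ac at a site came from the same cells cannot be told from whole liver.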

How the data were processed

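Livers of C57BL/6 mice were studied by ChIP-Seq. According to the methods of the study, the authors aligned reads to mm10 with BWA, removed duplicates, used only unique alignments, pooled the livers within each age and ran PeakSeq against input chromatin, with a separate threshold for each protein. The deposited lists give positions only. They hold no height, count or p-value, so the depth is unknown and no test between ages was possible. Padding after some chromosome names was removed. No peak ran past the end of its GRCm38 chromosome.

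Peaks sharing at least 1 bp were counted as overlapping, by code checked against bedtools 2.31.1 in 30 pairs of lists (0 differed) and tested on simulated data. Genes were those of the GENCODE vM21 basic annotation. Copies were sought with minimap2 2.31. Shares carry 95% Wilson intervals and their differences Newcombe intervals. Python 3.11.15, numpy 2.4.6, scipy 1.17.1, pandas 2.3.3 and matplotlib 3.10.9 were used.

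The sites, gene lists and rules were chosen with earlier results of these data known. Genes named are the 20 with most sites over their body, the 20 coding genes with the widest sites at the start that had both old peaks, list genes with a site (up to 10 a list), the genes of the 5 widest sites and 5 richest bins, and 3 sites on either side of the threshold. Other bins and zinc finger genes named were picked after their values were seen. Windows shown avoid untranslated regions, and those at start sites also windows over 25% soft-masked. Sequential ChIP samples were not analysed here. No list of regions with abnormal signal was used.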

Additional observations from a re-analysis of the deposited data

How the results depend on the processing

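No paired analysis was possible because each list pools the livers of an age. The following values are given in this order for each setting: the share of sites with an old H3K14ac peak, the share with an old Kap1 peak, and the difference in the H3K14ac share from peaks with neither factor, in percentage points, over all places and then away from start sites. As reported they were 34.3%, 46.3%, 15.4 and 25.8. They were 28.1%, 41.1%, 8.08 and 17.5 when at least 50% of the Kap1 peak had to be covered. The values became 28.1%, 36.1%, 8.68 and 19.9 when a gap of up to 500 bp to either factor counted. They came to 21.5%, 31.4%, 7.75 and 14.9 when every peak was set to 200 bp. They were 28.9%, 40.7%, 11.4 and 20.5 when H3K14ac peaks within 1000 bp were merged. The values became 28.4%, 41.7%, 9.85 and 20.4 when peaks of exactly 500 bp were used. They came to 36.7%, 48.7%, 18 and 28.3 when chromosome 7 was left out. They were 29.5%, 39.8%, 10.9 and 21.4 when peaks with a further copy were left out. The values became 28.5%, 39.7%, 9.78 and 19.8 when chromosome 4 was left out. They came to 18%, 24%, -0.114 and 11.6 when the 1 Mb bins with 10 or more sites were left out. The last difference over all places turned its sign, while the difference away from start sites kept its direction in all of these settings. The settings without chromosome 4 and without the rich bins, and all settings for the differences, were chosen after seeing the data. Requiring 50% of the young peak to be covered gave 25.7%, 10.8 and 19.9 for H3K14ac, and a gap of up to 500 bp to the old peak gave 43.1%, 19 and 31.2, with 56.9% for Kap1. 

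At 200 bp there were 1292 sites, of which 1.08% had an old Setdb1 peak. The share near a start site was 35.9% within 5 kb and 6.24% for protein coding transcripts, against 44.3% and 26.2% of peaks with neither factor. The share over zinc finger genes, 3.73% as reported, was 1.69% without chromosome 4, below the 2.32% of peaks with neither factor, and 2.23% without the rich bins. The linker share, 0.629% as reported, was 0.356% with 50% of the Kap1 peak covered, 0.232% at 200 bp, 0.352% over no zinc finger gene and 0.343% without the rich bins, from 13 sites or fewer. Further copies rose to 30% at 90% identity over 80% of the length. The causes of these changes were not tested. The lists carry neither depth nor replicates, so a site without an old peak may have fallen below the threshold in the old pool.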

Other observations

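The sex chromosomes were not part of the count above. On chromosome X, 62 of 416 young H3K14ac peaks met Kap1 without Setdb1, and on chromosome Y 16 of 49 did.

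Outside the richest regions already described, 3 further 1 Mb bins were chosen after their values were seen. Between 61 and 62 Mb of chromosome 4, where genes of the major urinary proteins lie (Mup5, Mup13 to Mup19), all 42 sites had a further copy, and 28 had an old H3K14ac peak and 33 an old Kap1 peak. Between 13 and 14 Mb of chromosome 17, 42 sites included those of Smok2a and Smok2b, and 31 had an old H3K14ac peak. Between 130 and 131 Mb of chromosome 10, with Tespa1, Neurod4 and chemosensory receptor genes, 8 of 46 sites had an old H3K14ac peak and 12 an old Kap1 peak. In the same order of bins, an old H3K14ac peak overlapped 6 of 11, 9 of 53 and 2 of 55 peaks with neither factor.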
